A study of Homo sapiens with 6 samples.

Results

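Elastin, the fibulins and the small proteins of the microfibril were followed in CCD18Co fibroblasts after *LTBP2* silencing. The 10 genes were chosen by name, with earlier results of these data known, and all 10 were among the 60663 genes of the count table. They were the elastin gene (*ELN*), *EMILIN1* and the 5 fibulin genes *FBLN1*, *FBLN2*, *FBLN5*, *EFEMP1* and *EFEMP2*. The others were the microfibril-associated protein genes *MFAP2*, *MFAP4* and *MFAP5*. CCD18Co is an established line of human colon fibroblasts. The cells were transfected for 6 h, with lipofectamine, with siRNAs against *LTBP2* (siLTBP2) or with a non-targeting control (siNT), and their RNA was sequenced 48 h after transfection. There were 3 libraries per group, numbered 1 to 3, all from this 1 line. The sources do not say whether they came from separate cultures, so the p-values measure the spread between these libraries, which may be technical.

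An elastic fibre is a core of cross-linked elastin laid down on a scaffold of fibrillin microfibrils. Fibulins carry the elastin precursor to the microfibrils and, for fibulin-4, the product of *EFEMP2*, bring it together with lysyl oxidase, the enzyme that starts the cross-links. The MFAP proteins and EMILIN1 sit on the microfibril or at its border with elastin, and LTBP2, a relative of the fibrillins, binds microfibrils and fibulin-5. In the gut wall such fibres are made by fibroblasts and smooth muscle cells.

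Silencing went with a rise of *EFEMP2*. It was the only 1 of the 6 tested members that passed the test, at 1.37 times its siNT level (95% interval 1.22 to 1.55). No member passed it in the lower direction. Of all 16920 tested genes 19.3% passed, 9.76% higher and 9.51% lower. *EFEMP1* was 1.19 times its siNT level and passed only when libraries of the same number were compared as pairs or when siLTBP2 library 3 was left out. *FBLN1*, *FBLN5* and *EMILIN1* stayed within the spread of the libraries, *MFAP4* was near the limit of detection, and the transcripts of elastin itself, *FBLN2*, *MFAP2* and *MFAP5* were at or near 0 in both groups. The silenced gene, *LTBP2*, measured 24.97, 23.11 and 21.2 CPM (normalised counts scaled to a common library size of 1e6) in siNT and 6.493, 8.606 and 5.996 CPM in siLTBP2. No siLTBP2 library reached the siNT range, and 30.5% of the transcript remained (log2 fold change -1.72, SE 0.15, edgeR adjusted p = 6.6e-05).

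The libraries held 44663424 to 53576899 counts, of which the 10 members took 0.054% to 0.0693%. At these depths 3 counts, the limit that a count of 0 allows, equal 0.056 to 0.0672 CPM, a limit that covers counting error only. All 9 fibroblast markers were expressed (summed level 9983 to 14058 CPM of total counts per library). In edgeR *PDGFRB* was the only one that passed (log2 fold change -0.60, adjusted p = 0.0025), beside 19.3% of all tested genes. DESeq2 and the likelihood ratio test each called 2 of the 9. Of 5 smooth muscle markers, *DES*, *MYH11* and *CNN1* were at 0 to 5 counts in each library, while *ACTG2* and *SMTN* rose (log2 fold changes 0.57 and 0.79, adjusted p = 0.0056 and 2.4e-04). Their summed level was 229.8 to 242.5 CPM in siNT and 375.7 to 418.1 CPM in siLTBP2, and its part in the results on the members was not tested. The summed markers of other cells stayed low in every library, at 1.43 to 4.14 CPM for 5 epithelial, 0.79 to 2.0 CPM for 4 endothelial, 0.112 to 0.566 CPM for 4 leukocyte and 0.085 to 0.382 CPM for 4 glial genes. *KRT20*, *S100B* and *SOX10* were at 0 throughout. No gene of these 4 lists passed edgeR's test or DESeq2's, though *VWF*, an endothelial gene, had an unadjusted p under 0.05 and passed the likelihood ratio test. In bulk RNA a lower share of one cell type and less RNA per cell cannot be told apart.

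The promoters of 3 members are shown because these genes took different courses. *EFEMP2* rose, *FBLN1* was about as abundant and did not pass the test, and *MFAP2* had no read. Each window runs from 250 bases before to 50 bases after a RefSeq start site on GRCh38.p14, and is written 5′ to 3′ on the strand of the gene. Capitals mark the GC box GGGCGG, searched on both strands, with overlapping copies counted apart.
EFEMP2 promoter, chr11:65872751-65873050, minus strand: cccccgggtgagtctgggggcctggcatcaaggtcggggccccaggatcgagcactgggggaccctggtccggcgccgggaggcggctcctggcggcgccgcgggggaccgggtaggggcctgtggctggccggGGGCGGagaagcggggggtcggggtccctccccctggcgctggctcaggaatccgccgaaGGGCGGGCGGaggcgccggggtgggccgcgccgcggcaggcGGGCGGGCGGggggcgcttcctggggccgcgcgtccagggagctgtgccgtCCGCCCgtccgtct
FBLN1 promoter, chr22:45502633-45502932, plus strand: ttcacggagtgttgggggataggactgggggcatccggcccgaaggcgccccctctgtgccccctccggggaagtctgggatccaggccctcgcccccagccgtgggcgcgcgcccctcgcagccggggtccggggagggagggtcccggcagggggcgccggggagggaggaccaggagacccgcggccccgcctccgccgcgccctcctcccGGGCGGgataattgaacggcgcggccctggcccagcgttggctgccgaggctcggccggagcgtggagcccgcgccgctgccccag
MFAP2 promoter, chr1:16980571-16980870, minus strand: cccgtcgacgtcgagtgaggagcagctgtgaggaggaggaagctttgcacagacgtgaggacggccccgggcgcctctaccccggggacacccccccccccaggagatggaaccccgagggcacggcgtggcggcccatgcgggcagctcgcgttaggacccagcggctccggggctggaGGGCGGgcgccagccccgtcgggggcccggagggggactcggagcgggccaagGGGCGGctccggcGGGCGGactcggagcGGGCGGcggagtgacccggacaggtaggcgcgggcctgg
The *EFEMP2* window has a GC content of 80.7% and 6 copies of the GC box, the *FBLN1* window 78.0% and 1 copy, and the *MFAP2* window 76.7% and 4 copies. Over all 35116 windows of the RefSeq table, 45.0% hold the box and the median GC content is 58.7%. None of the 3 windows printed holds the TATA box TATAAA, which 11.5% of all windows hold, or the AP-1 motif TGANTCA, which 7.7% hold. *MFAP2* has a second RefSeq start, whose window (chr1:16981534-16981833, not printed) has a GC content of 49.0%, 0 GC boxes and 2 AP-1 motifs. RefSeq windows were matched for 5 of the 10 members, *EFEMP2*, *FBLN1*, *FBLN2*, *FBLN5* and *MFAP2*, and not for *ELN*, *EFEMP1*, *MFAP4*, *MFAP5* and *EMILIN1*.

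Levels between genes are compared per kilobase of exon, as RPKM, with the length of the union of all annotated exons of a gene. The transcript in use can be shorter, so the order of genes and their shares depend on this length. The spread between libraries does not measure that error. In siNT the order was *EMILIN1* at 57.61 ± 7.314 RPKM (SD, n = 3), *FBLN1* at 22.49 ± 2.57, *EFEMP2* at 21.46 ± 0.8477, *EFEMP1* at 16.38 ± 1.499 and *FBLN5* at 2.214 ± 0.6133 RPKM. *EMILIN1* lay above 96.5% of all tested genes and *FBLN5* above 43.3%. *FBLN1* and *EFEMP2* did not differ beyond their spread in siNT, whereas every other neighbouring pair of these 5 was apart in all 3 libraries. In siLTBP2, *EFEMP2* (29.44 ± 0.7625 RPKM) lay above *FBLN1* (23.52 ± 3.851 RPKM) in all 3 libraries, against 1 of 3 in siNT.

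**Figure D1:**
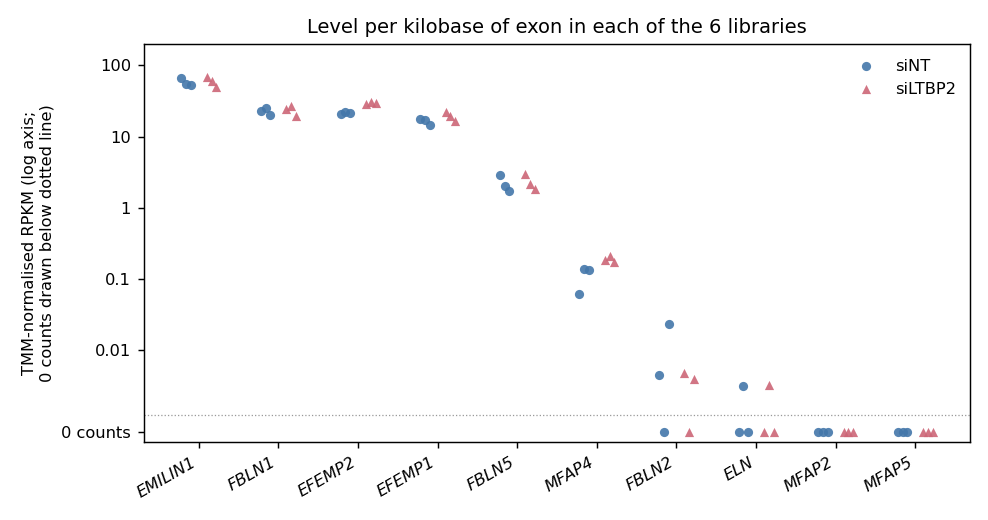
Level of the 10 members per kilobase of exon (RPKM, log axis) in each of the 3 siNT (circles) and 3 siLTBP2 (triangles) libraries, with libraries at 0 counts drawn below the dotted line. The 5 most abundant members lie above 1 RPKM in every library, *MFAP4* lies near 0.1, and the other 4 are at or near 0.

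Elastin is the core protein of the fibre. *ELN* (ENSG00000049540, chromosome 7, 74027789 to 74069907, plus strand of GRCh38) had 1 count in siNT library 2, 1 count in siLTBP2 library 2 and 0 in each of the other 4 libraries. It was at or below the limit of 3 counts in all 6 libraries and was not tested, so a change was not detectable at this depth. The antisense gene *ELN-AS1*, which overlaps its exons, had 3, 12 and 6 counts in siNT and 10, 12 and 12 in siLTBP2 (log2 fold change 0.75, adjusted p = 0.31). The elastin transcript was thus close to 0 in a line that expressed the fibrillin gene *FBN1* and the lysyl oxidase gene *LOX*. Not all scaffold genes were expressed, as *MFAP2* and *MFAP5* had 0 counts.

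*EFEMP2* (ENSG00000172638, chromosome 11, 65866441 to 65873592, minus strand, 11 exons in the canonical transcript) encodes fibulin-4, which binds lysyl oxidase and is needed for elastic fibres to form. Its level was 110.8, 119.8 and 116.9 CPM in siNT and 156.0, 163.6 and 157.2 CPM in siLTBP2. All 3 siLTBP2 libraries lay above all 3 siNT libraries, as the groups did not overlap in 37% of all tested genes, in either direction. The means were 115.8 ± 4.575 and 158.9 ± 4.115 CPM (SD, n = 3), a log2 fold change of 0.46 (SE 0.08, 95% interval 0.28 to 0.63, adjusted p = 0.0027). Its spread was the narrowest of the expressed members, with a coefficient of variation of 3.95% in siNT and 2.59% in siLTBP2. The difference between same-numbered libraries was 0.49, 0.45 and 0.43 on the log2 scale. Under 14 other settings, which include dropping any single library, its log2 fold change lay between 0.42 and 0.48 and the adjusted p between 5.2e-06 and 0.021. Its exons overlap those of *MUS81* on the opposite strand, a nuclease gene that measured 37.16 CPM in siNT and 36.32 CPM in siLTBP2 (log2 fold change -0.03, adjusted p = 0.84). Since it is not stated whether reads were counted by strand, part of the *EFEMP2* count could be reads of *MUS81*, whose level did not pass the test.

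*EFEMP1* (ENSG00000115380, chromosome 2, 55865967 to 55924139, minus strand) encodes fibulin-3, the close relative of fibulin-4. It measured 69.45, 67.05 and 58.18 CPM in siNT and 87.9, 77.16 and 65.89 CPM in siLTBP2. The groups overlapped, since siLTBP2 library 3 lay below siNT libraries 1 and 2, but each siLTBP2 library lay above the siNT library of its own number, by 0.34, 0.20 and 0.18 on the log2 scale. The log2 fold change was 0.25 (SE 0.11, 95% interval -0.01 to 0.50, adjusted p = 0.17). With the replicate number as a block it was 0.24 (SE 0.07, 95% interval 0.09 to 0.39, adjusted p = 0.0086), and without siLTBP2 library 3 it was 0.35 (adjusted p = 0.041). Its adjusted p ranged from 0.0086 to 0.48 over 14 alternatives, and the call therefore rested on how the libraries were set against each other.

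*FBLN1* (ENSG00000077942, chromosome 22, 45502238 to 45601135, plus strand) encodes fibulin-1, a glycoprotein of elastic fibres and basement membranes. Its level was 166.2, 181.3 and 144.1 CPM in siNT and 176.5, 196.5 and 141.1 CPM in siLTBP2. Library 2 was the highest and library 3 the lowest of both groups, which overlapped. The log2 fold change was 0.06 (SE 0.13, 95% interval -0.22 to 0.35, adjusted p = 0.78).

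*FBLN5* (ENSG00000140092, chromosome 14, 91869411 to 91947987, minus strand) encodes fibulin-5, which tethers the elastin precursor to microfibrils and to cell-surface integrins, and which binds LTBP2. It measured 18.14, 12.76 and 10.7 CPM in siNT and 18.63, 13.58 and 11.46 CPM in siLTBP2. The groups covered nearly the same range, and library 1 stood above the others in both. The coefficient of variation was the widest of the members above 1 CPM, at 27.7% in siNT and 25.31% in siLTBP2, while same-numbered libraries differed by 0.04, 0.09 and 0.10 on the log2 scale. The log2 fold change was 0.07 (SE 0.21, 95% interval -0.40 to 0.54, adjusted p = 0.86).

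*FBLN2* (ENSG00000163520, chromosome 3, 13549125 to 13638422, plus strand), the gene of fibulin-2, had 1, 0 and 6 counts in siNT and 1, 0 and 1 in siLTBP2. Only siNT library 3 passed the limit of 3 counts, and the gene was not tested. The fibulin transcripts of these cells were thus mainly those of *FBLN1*, *EFEMP1* and *EFEMP2*.

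As a share of the summed fibulin RPKM, *EFEMP2* took 34.41 ± 2.72% in siNT and 39.6 ± 3.45% in siLTBP2 (SD, n = 3), and *FBLN1* took 35.88 ± 1.75% and 31.35 ± 2.65%. The siLTBP2 shares of *EFEMP2* (36.91%, 38.41% and 43.49%) overlapped those of siNT (32.19%, 33.6% and 37.44%), but were higher by 4.72, 4.81 and 6.05 percentage points between libraries of the same number. *EFEMP1* held 26.16 ± 1.15% and 25.95 ± 2.07%. The summed level of the 5 fibulins was 62.56 ± 4.226 RPKM in siNT and 74.72 ± 6.738 RPKM in siLTBP2.

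The balance of *EFEMP2* to its partners was set as the log2 ratio of CPM within each library, for 6 partners. Against *FBLN1* it was -0.59, -0.60 and -0.30 in siNT and -0.18, -0.26 and 0.16 in siLTBP2, and against *EMILIN1* it was -1.22, -0.81 and -0.82 and then -0.80, -0.51 and -0.29. Both ratios were higher in all siLTBP2 libraries, by 0.40 and 0.42 on average. These differences mainly repeat the rise of *EFEMP2* (log2 fold change 0.46), as *FBLN1* and *EMILIN1* had log2 fold changes of 0.06 and 0.05. Against *LOX*, the lysyl oxidase that fibulin-4 binds, the ratio went from -0.69, -0.26 and -0.39 to -1.30, -1.03 and -1.20, and was lower in all 3 siLTBP2 libraries, by 0.73 on the log2 scale. For these 3 ratios the exact permutation test (two-sided) gave p = 0.1, the smallest that 3 libraries against 3 allow, and 0.2 after Benjamini-Hochberg adjustment over the 6 ratios. The ratios to *EFEMP1*, *FBLN5* and *FBN1* differed by 0.22, 0.38 and -0.19, and their groups overlapped (exact permutation p = 0.3, 0.4 and 0.5, adjusted 0.45, 0.48 and 0.5). This test does not use the library numbers. Between libraries of the same number each of these 3 ratios differed in 1 direction, by 0.15, 0.25 and 0.25 for *EFEMP1*, 0.45, 0.36 and 0.33 for *FBLN5* and -0.18, -0.16 and -0.24 for *FBN1*.

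**Figure D2:**
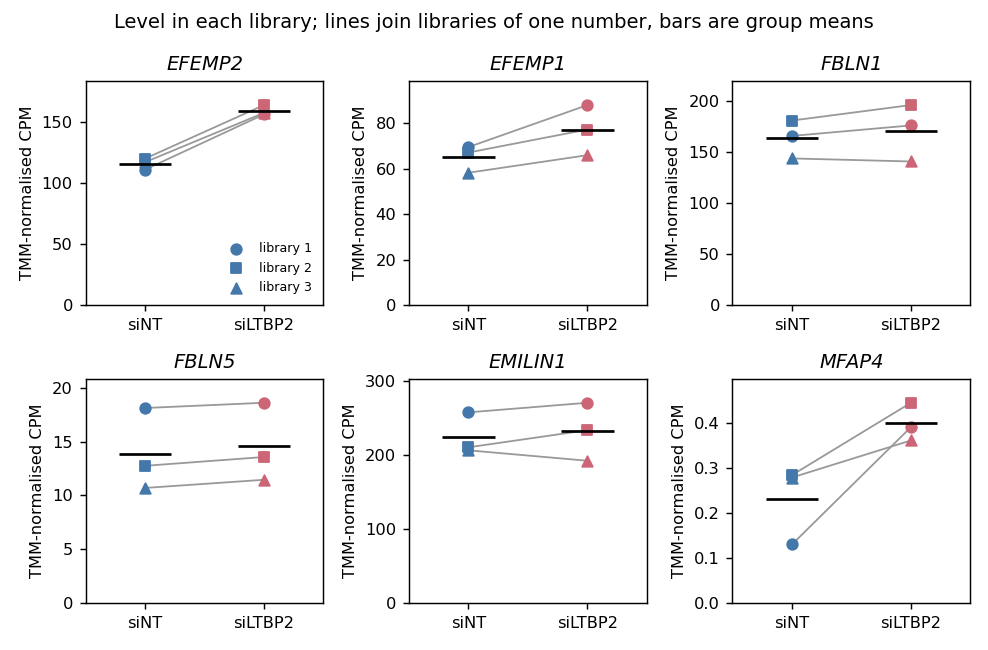
TMM-normalised CPM of the 6 tested members in each library, on linear axes from 0, with grey lines joining siNT and siLTBP2 libraries of the same number and black bars at the group means. The 3 *EFEMP2* lines rise together from 110.8 to 119.8 CPM up to 156.0 to 163.6 CPM, the *EFEMP1* lines all rise while the groups overlap, and those of *FBLN1*, *FBLN5* and *EMILIN1* are nearly level.

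The microfibril-associated glycoproteins encoded by *MFAP2* (ENSG00000117122, chromosome 1, 16974502 to 16980632, minus strand) and *MFAP5* (ENSG00000197614, chromosome 12, 8637346 to 8662888, minus strand) bind fibrillin. Both had 0 counts in all 6 libraries, which allows up to 0.056 to 0.0672 CPM per library. Neither transcript was detectable at this depth. *MFAP4* (ENSG00000166482, chromosome 17, 19383442 to 19387190, minus strand) encodes a glycoprotein that binds elastin and fibrillin. It had 6, 14 and 15 counts in siNT and 17, 21 and 19 in siLTBP2, or 0.1297, 0.2836 and 0.2782 CPM and 0.3901, 0.4441 and 0.3605 CPM. The siLTBP2 libraries were all above the siNT libraries, but the log2 fold change of 0.77 had a wide error (SE 0.36, 95% interval -0.03 to 1.57, adjusted p = 0.17). Its exons overlap those of *MAPK7*, a kinase gene on the opposite strand that measured 35.61 CPM in siNT and 42.53 CPM in siLTBP2 (log2 fold change 0.26, adjusted p = 0.081). Whether reads were counted by strand is not given in the sources used here, so the few *MFAP4* counts are uncertain.

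*EMILIN1* (ENSG00000138080, chromosome 2, 27078615 to 27086403, plus strand) encodes a glycoprotein of the border between elastin and microfibrils, and was the most abundant member. Its level was 257.9, 210.6 and 206.5 CPM in siNT and 270.9, 233.8 and 192.4 CPM in siLTBP2. Library 1 was the highest of each group, and siLTBP2 library 3 was the lowest of the 6. The log2 fold change was 0.05 (SE 0.13, 95% interval -0.25 to 0.34, adjusted p = 0.85). It took 47.81% of the summed RPKM of the 10 members in siNT and 44.1% in siLTBP2.

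Of the 10 members, 6 were tested and 1 passed an adjusted p of 0.05, where 19.3% of the 16920 tested genes did so. That member was higher, as were 9.76% of all tested genes, and 0 were lower, where 9.51% of all were. At an unadjusted p under 0.05 edgeR also gave 1 higher and 0 lower members, and DESeq2 and the likelihood ratio test each called 1 higher and 0 lower. None was deregulated by the study's thresholds, an adjusted p below 0.01 with a fold change above 2, which 2.57% of all tested genes passed. No member had an unadjusted p under 0.05 with such a fold change in edgeR, DESeq2 or the likelihood ratio test. The groups did not overlap for *EFEMP2* and *MFAP4*, 2 of the 6, near the 37% of all tested genes. The median log2 fold change was 0.16 over the 6 members and -0.01 over all tested genes, and with the replicate block 2 members passed in place of 1, the second being *EFEMP1*, where 36.2% of all tested genes passed with the block.

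**Figure D3:**
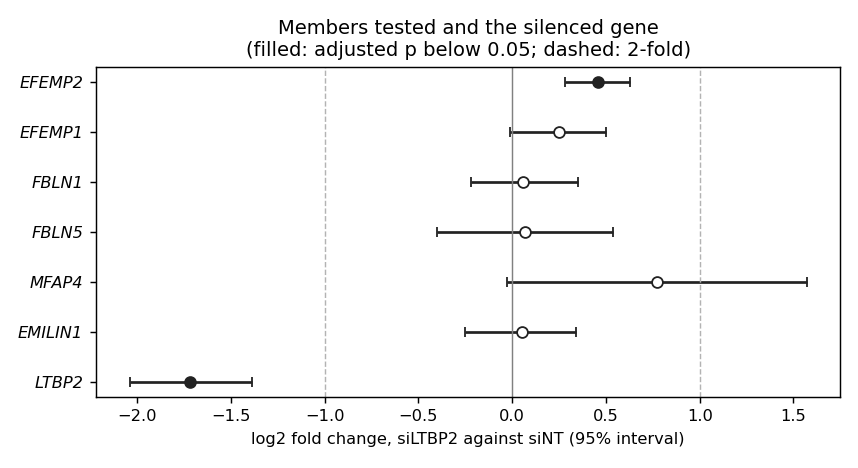
Log2 fold change of siLTBP2 against siNT with its 95% interval from edgeR, for the 6 tested members and for *LTBP2*, filled where the adjusted p was below 0.05, with dashed lines at a 2-fold change. The interval of *EFEMP2* lies between 0.28 and 0.63, those of the other 5 members reach 0, and *LTBP2* lies at -1.72.

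The other genes of the elastic fibre were taken from 8 lists, 57 genes without *LTBP2*. Of these, 42 were tested and 17 passed the test, 12 higher and 5 lower, beside 19.3%, 9.76% and 9.51% of all tested genes. Their median log2 fold change was 0.08. With the replicate block 31 passed, 18 higher and 13 lower, beside 36.2%, 18.4% and 17.9% of all tested genes. *LOX* and *TIMP3* were deregulated. The lists were written with earlier results of these data known, and their counts are descriptions. Of the 17 genes, 9 passed under all 14 alternatives and 0 changed direction under any.

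Among the fibrillins and LTBPs, which form the microfibril or bind to it, 4 of the 5 tested genes other than *LTBP2* passed, and they went both ways. Of all tested genes 19.3% passed, 9.76% higher and 9.51% lower. *FBN1*, the main fibrillin gene, rose from 683 to 1073 CPM (log2 fold change 0.65, SE 0.16, adjusted p = 0.017), with 827.4, 624.9 and 596.7 CPM in siNT and 1321, 952.3 and 945.6 CPM in siLTBP2. Without siNT library 2, siNT library 3 or siLTBP2 library 1 it missed the threshold, with an adjusted p of up to 0.076. *LTBP1*, which holds latent TGF-beta in the matrix, rose (0.87, adjusted p = 0.002), and *LTBP3*, with a like role, fell (-0.92, adjusted p = 0.0014). *LTBP4*, which is needed for elastic fibre assembly together with fibulin-5, fell by 0.58 on the log2 scale (adjusted p = 0.046). It missed the threshold under 6 of 14 alternatives, among them leaving out siNT library 1 or 2 or siLTBP2 library 1 or 3, with an adjusted p of up to 0.16.

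Of the 5 lysyl oxidases, all tested, 2 rose, beside 9.76% of all tested genes. *LOX* went from 179.3, 143.1 and 153.0 CPM to 383.8, 333.4 and 359.9 CPM (log2 fold change 1.18, SE 0.11, adjusted p = 7.6e-05). *LOXL1*, the relative that fibulin-5 binds, rose by 0.39 (adjusted p = 0.017), but missed the threshold without siNT library 2 or 3 or siLTBP2 library 1 or 2, with an adjusted p of up to 0.088. *EFEMP2* and *LOX*, whose products bind each other, thus both rose, by 0.46 and 1.18 on the log2 scale.

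Among 8 ADAMTS and ADAMTSL genes of microfibril assembly, 4 were tested and 2 rose, beside 9.76% of all tested genes. They were *ADAMTSL5* (0.52, adjusted p = 0.0036) and *ADAMTS6* (0.82, adjusted p = 0.022), the latter lost without siNT library 1 or siLTBP2 library 2 (adjusted p of up to 0.066). Of the 7 other fibulin and emilin family genes, 2 were tested and 0 passed edgeR's test, beside 19.3% of all tested genes. In edgeR 0 had an unadjusted p under 0.05, and 0 were called by DESeq2 or the likelihood ratio test. Of 4 genes of elastin's chaperone and receptor complex, all tested, 1 fell, beside 9.51% of all tested genes. This was *FKBP10*, which helps fold the elastin precursor and collagens (-0.40, adjusted p = 0.024). It missed the threshold without any 1 of the siNT libraries or without siLTBP2 library 3 (adjusted p of up to 0.071). Of 7 other proteins found with elastic fibres, 6 were tested, with a median log2 fold change of -0.27. Only *FN1*, the gene of fibronectin, on which microfibrils assemble, passed, 1 of 6 beside 19.3% of all tested genes. It rose from 1164 to 1969 CPM (0.76, adjusted p = 0.0016). The other tested genes of this list all had negative log2 fold changes and did not pass edgeR's test without the replicate block. With the block more genes of all lists together were called lower, and its result for each of these genes is not given here. DESeq2 and the likelihood ratio test each called 2 genes of the list.

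**Figure D4:**
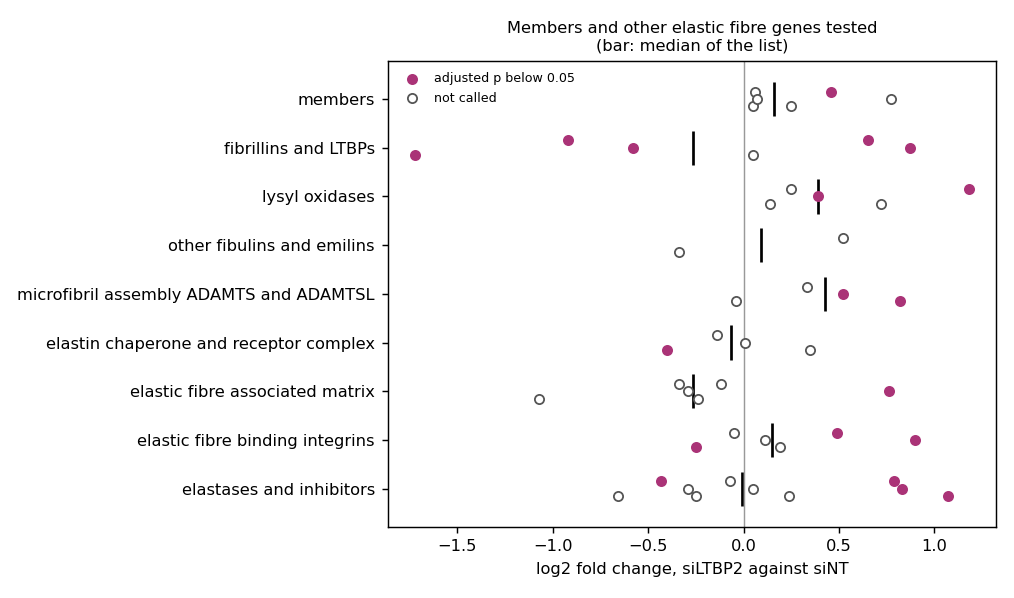
Log2 fold change of siLTBP2 against siNT for each tested member and each tested gene of the 8 other elastic fibre lists, 1 point per gene, filled where the adjusted p was below 0.05, with a bar at the median of each list. The fibrillin and LTBP list includes *LTBP2* at -1.72, *LOX* lies at 1.18, and the members lie between 0.05 and 0.77 with *EFEMP2* the filled point at 0.46.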

How the data were processed

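RNA of 3 siNT and 3 siLTBP2 libraries of CCD18Co cells was sequenced from stranded libraries after removal of ribosomal RNA. The submitters' processing notes name bcl2fastq, STAR 2.7.1a, HTSeq 0.11.2 and GRCh38, and the authors deposited raw counts per gene without normalization. The annotation release and strand setting of the counts were not given in the sources used here. Of the gene identifiers, 60462 are in GENCODE 44, from which exon lengths and positions were taken. All 10 members have the same start there.

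The 16920 genes kept by filterByExpr were scaled with TMM factors and compared in edgeR 4.0.16 (glmQLFit and glmQLFTest, two-sided, no block) in R 4.3.3, with Benjamini-Hochberg adjustment over all of them. A call is an adjusted p below 0.05. CPM and RPKM use TMM library sizes. The standard error is the log2 fold change over the square root of F. The test was checked on simulated counts for 16619 genes of this comparison. There it called 79.4% of 97 genes changed 2-fold and 97.9% of 96 changed 4-fold. Of its calls 8.6% were false, above the share that an adjusted p of 0.05 is meant to hold. Changes under 2-fold, such as that of *EFEMP2*, were not simulated. The alternatives were the likelihood ratio test, DESeq2 1.42.0, total-count, upper-quartile and RLE factors, no low-count filter, 1 CPM in 3 libraries, the replicate block and each library left out.

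The pairing was checked on the libraries' deviations from their group means. Libraries with the same number in the labels correlated at 0.44, 0.19 and 0.57, and those of different numbers between -0.5 and 0.07. The blocked fit is therefore given for the members where it changes a call. For the other elastic fibre lists it is given only as counts over all lists together. Calls of single genes of these lists and of marker genes are from the fit without the block, and pairing could change them. Libraries of one group differed by more than sampling noise (chi-square per degree of freedom 28.25 to 55.41). Members and lists were chosen with earlier results of these data known. All 10 members, *LTBP2* and, of each list, up to 4 called genes with a mean of at least 1 CPM and the largest absolute log2 fold change are named. Marker genes, genes that overlap members and *FBN1* and *LOX* as partners of *EFEMP2* are named besides.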

Additional observations from a re-analysis of the deposited data

How the results depend on the processing

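The log2 fold change of *EFEMP2* was positive and passed the threshold under all 14 alternatives, and that of *LTBP2* was negative and passed under all 14. With the replicate block, 2 members passed in place of 1, both higher, and *EFEMP1* (0.24) was the addition. The block changed the call of no other member. It gave 31 pathway genes in place of 17 and 13 lower ones in place of 5, and over all genes 6131 calls in place of 3261. With each library left out in turn, 1 to 2 members passed, all of them higher, with *EFEMP1* added without siLTBP2 library 3 (0.35), and between 12 and 16 pathway genes passed, between 2 and 4 of them lower. Without the low-count filter 9 pathway genes were lower. The 3 members *FBLN1*, *FBLN5* and *EMILIN1*, which had no call, changed direction in 2 fits each. *FBLN1* was at -0.02 without siNT library 3 and -0.05 without siLTBP2 library 2, *FBLN5* at -0.09 without siNT library 3 and -0.15 without siLTBP2 library 1, and *EMILIN1* at -0.01 without siNT library 3 and -0.08 without siLTBP2 library 1. Leaving out a library leaves 2 in its group and 3 in the other. When 1 library was left out, *FBLN1* ranged from -0.05 to 0.19, *FBLN5* from -0.15 to 0.30 and *EMILIN1* from -0.08 to 0.17. No scaling moved the median of all genes by more than 0.04 (log2). *MFAP4* has no value with the filter of 1 CPM in 3 libraries. Depth limits *ELN*, *FBLN2*, *MFAP2*, *MFAP5* and *MFAP4*.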

Other observations

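Genes of integrins with ligands in the elastic fibre went both ways after silencing. Of 7 integrin genes whose products bind fibulin-5, fibrillin, fibronectin or emilin, 6 were tested, 2 rose and 1 fell. The median log2 fold change of the 6 was 0.15. Over all tested genes 9.76% rose and 9.51% fell. *ITGB1*, the beta chain shared by most matrix-binding integrins, measured 676.9, 704.2 and 762.7 CPM in siNT and 1343, 1315 and 1347 CPM in siLTBP2 (log2 fold change 0.90, SE 0.09, adjusted p = 1.8e-04). *ITGB3* rose by 0.49 (adjusted p = 0.013, and up to 0.057 without siNT library 1). *ITGAV*, the alpha chain that pairs with both, fell by 0.25 (adjusted p = 0.046), and missed the threshold under 8 of 14 alternatives, among them each library left out (adjusted p of up to 0.13).

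Genes of the enzymes that break down elastin and of their inhibitors went both ways. Of 13 such genes 10 were tested, 3 rose and 1 fell, with a median log2 fold change of -0.01. Over all tested genes 9.76% rose and 9.51% fell. *TIMP3*, an inhibitor of metalloproteinases that is bound to the matrix, rose from 188.7, 109.6 and 117.3 CPM to 344.6, 275.1 and 255.4 CPM (1.07, SE 0.19, adjusted p = 0.0034). *MMP14*, a membrane-bound metalloproteinase, rose by 0.83 (adjusted p = 0.0032), and *CTSL*, a lysosomal protease, by 0.79 (adjusted p = 0.001). *CTSK*, a cathepsin that cuts elastin and collagen, fell by 0.43 on the log2 scale (adjusted p = 0.033). It missed the threshold without siNT library 1 or 2 or siLTBP2 library 2 or 3, with an adjusted p of up to 0.12.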
